A study of Bos taurus with 8 samples.

Results

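Aminoacyl-tRNA synthetase genes of bovine granulosa cells were described here in summer and in winter. The symbol rule matched 37 of them among the 26804 listed genes, as an amino acid letter followed by ARS with or without a 1 or a 2, *EPRS1*, or the phenylalanine subunits *FARSA* and *FARSB*. A symbol ending in 2 was taken as a mitochondrial enzyme and any other as a cytosolic enzyme. The genes described, over which every count, median and sum was taken, are 35 of the 37, with 19 cytosolic and 16 mitochondrial enzymes. Granulosa cells, which line the ovarian follicle around the oocyte, came from multiparous, dry Angus beef cows, which the methods describe as crossbred. The same herd was sampled by ovum pick-up (OPU) in winter, for which the labels give January and the methods February, and in August (summer). In both seasons the cows received a GnRH analog and FSH and carried a progesterone device (CIDR), so every library comes from stimulated follicles. Ages were not given. There were 4 libraries a season, numbered 1, 2, 3 and 5 in summer and 1, 3, 4 and 5 in winter, and values given for each library follow that order. A library was made by poly(A) selection from the pooled RNA of 2 cows, and the cells of the aspirate were not sorted. OPU was done once in each season, which means that an effect of the session and one of the season cannot be told apart, and that p-values measure the spread between pools only.

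An aminoacyl-tRNA synthetase joins an amino acid to its tRNA, the step that fixes which amino acid a codon is read as. Animal cells make proteins in the cytosol and, separately, in the mitochondrion, and nuclear genes encode an enzyme set for each. A few genes serve both compartments, among them *GARS1* and *KARS1*, while mitochondria charge glutaminyl-tRNA by an indirect route and need no glutamine enzyme of their own. In the cytosol, several of the enzymes sit together with scaffold proteins in a multi-synthetase complex. Transcription of many cytosolic synthetases is raised by ATF4 when amino acids run short, and *WARS1* is also induced by interferon, as known from human and mouse cells. The granulosa cell is a secretory cell, so protein synthesis is part of its work.

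The values are TPM, a transcript abundance per unit of length that sums to 1000000 in a library. Messages of the 13 proteins encoded in mitochondrial DNA took 50.7% to 87.7% of the TPM in summer and 85.1% to 92.0% in winter. They were therefore removed, the remaining genes were brought to 1000000 again, and a factor by the trimmed mean of M-values (TMM) was applied, which gives the scaled TPM used below. The study states an average read number over its granulosa cell libraries, but none for a single library is given in the sources used here, so the depth behind each value is unknown. All 35 synthetases were above the expression threshold (a normalised log expression, zFPKM, above -3) in all 8 libraries and were tested. The lowest zFPKM was -2.54, of *PARS2* in summer replicate 2. Of 12 granulosa cell markers all were detected in both seasons, and 7 were higher in summer and none lower. *INHA*, an inhibin subunit, was 13505 to 40783 scaled TPM in summer and 9039 to 12488 in winter. The log2 fold changes (summer minus winter) of *FOXL2* (-0.75, adjusted p = 0.0991, limma) and *AMHR2* (-0.46, adjusted p = 0.467) had the opposite sign without passing. Markers of other cells moved with season too. The 16 leukocyte markers summed to 40.1 to 173 scaled TPM in summer and 469 to 976 in winter, with 12 lower and none higher in summer by limma. Red cell markers summed to 39.0 to 98.9 in summer and 566 to 42418 in winter, highest in replicate 3, and all 3 tested were lower. Of 8 tested markers of surface epithelium 5 were lower, of 8 of fibroblasts 4 were lower and 1 higher, and of 6 of the oocyte 3 were higher, while none of 7 endothelial and 4 theca markers passed. All 6 tested oocyte markers met the expression filter through the summer libraries only, so a call in that direction was favoured in advance. The 9 listed oocyte markers summed to 8.46 to 14.3 scaled TPM in summer and 0.792 to 2.52 in winter. The part of all these other cell types in the results below was not tested. In a pellet of mixed cells, fewer cells of a type and less RNA per cell cannot be told apart.

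The lysine enzyme *KARS1* was the most abundant synthetase in all 8 libraries, at 236, 248, 282 and 237 scaled TPM in summer and 272, 324, 272 and 316 in winter. It alone held 19.6% to 24.2% of the TPM of the cytosolic class. The glutamine enzyme *QARS1* followed, with a mean of 123 scaled TPM over the 8 libraries, and *WARS1* for tryptophan with 91.5. The isoleucine enzyme *IARS1* was the lowest of the cytosolic class, with a mean of 19.1. The mitochondrial enzymes were led by *IARS2* with a mean of 66.9, and the lowest were *MARS2* for methionine (1.42), *PARS2* for proline (1.29) and *EARS2* for glutamate (0.879). The median of the member means was 54.8 scaled TPM for cytosolic and 8.44 for mitochondrial enzymes, and 10.1 for all 13046 tested genes. All 11 synthetases with a mean under 15 were mitochondrial. Neighbours in this order were often within each other's spread over libraries. For example, *NARS1* for asparagine (58.2 to 95.2), *EPRS1*, which charges both glutamate and proline (65.5 to 96.6), and *FARSB* (64.1 to 82.3) overlapped.

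**Figure D1:**
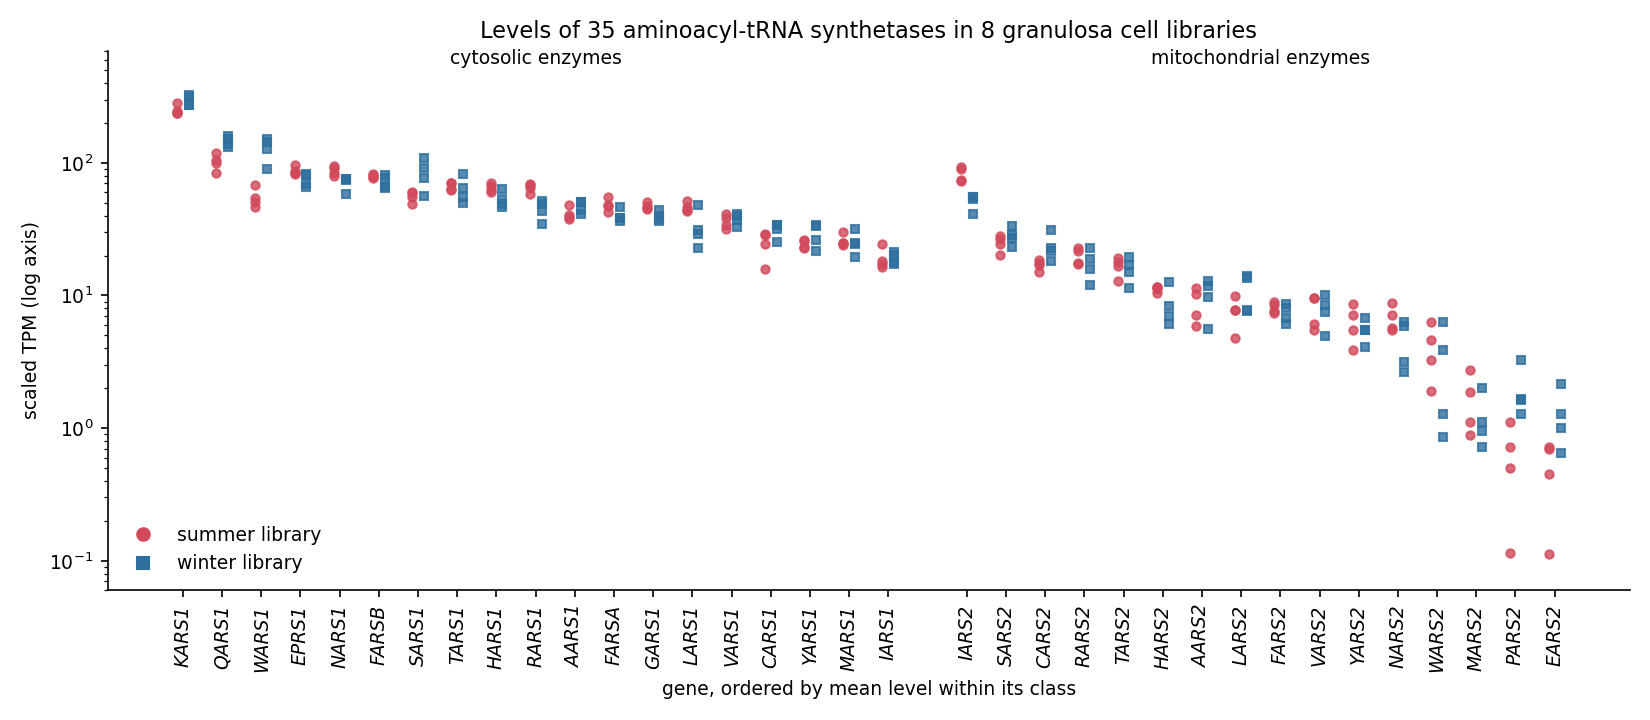
Each point is a library, with scaled TPM on a log axis and the 35 genes ordered by mean level within the cytosolic and the mitochondrial class. *KARS1* stands highest, the cytosolic class ends at *IARS1* with a mean of 19.1, and the mitochondrial class runs from *IARS2* with a mean of 66.9 to *EARS2* with a mean of 0.879.

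How steady a gene was across all libraries differed widely. *FARSB*, the beta subunit of phenylalanyl-tRNA synthetase, had a highest value 1.28 times its lowest, *VARS1* for valine 1.304 times, *AARS1* for alanine 1.36 times, *KARS1* 1.37 times and *GARS1* for glycine 1.37 times. The alpha subunit *FARSA*, which works with *FARSB* in a complex of both chains, was 0.476 to 0.676 times the level of *FARSB* within a library. The widest spans belonged to low mitochondrial genes. *PARS2* ran from 0.115 to 3.29 scaled TPM (28.6 times), *EARS2* from 0.112 to 2.14 (19.0 times) and *WARS2* from 0.859 to 6.29 (7.32 times). Among cytosolic genes *WARS1* had the widest span, 3.27 times.

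Few synthetases differed between seasons. By limma on log2(scaled TPM + 1), with Benjamini-Hochberg adjustment over all tested genes, 4 of 35 passed an adjusted p of 0.05, which is 11.4%, while 21.2% of all tested genes passed. Higher in summer were *IARS2* and *RARS1* (11.0% of all tested genes were higher), and lower were *WARS1* and *QARS1* (10.2% of all were lower). At an unadjusted p under 0.05 there were 7. The share of all tested genes at that threshold was not computed, but it is at least the 21.2% past the adjusted p. That floor also holds beside the unadjusted counts of the lists below. Of the 19 cytosolic enzymes 1 was higher and 2 lower, and of the 16 mitochondrial enzymes 1 was higher and none lower. The median log2 fold change, summer minus winter, was 0.08 for all 35, 0.05 for the cytosolic and 0.10 for the mitochondrial enzymes, beside 0.03 for all tested genes. Only *WARS1* also reached the 2-fold change by which the study calls a gene, where 12.8% of all tested genes did. The seasons did not overlap for 8 of the 35, a share close to the 24.3% of all tested genes. The shares past the adjusted p and at a 2-fold change were below those of all tested genes. On the deposited TPM, without rescaling, however, 26 of the 35 were higher and none lower, against 62.9% of all tested genes past the threshold in either direction.

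**Figure D2:**
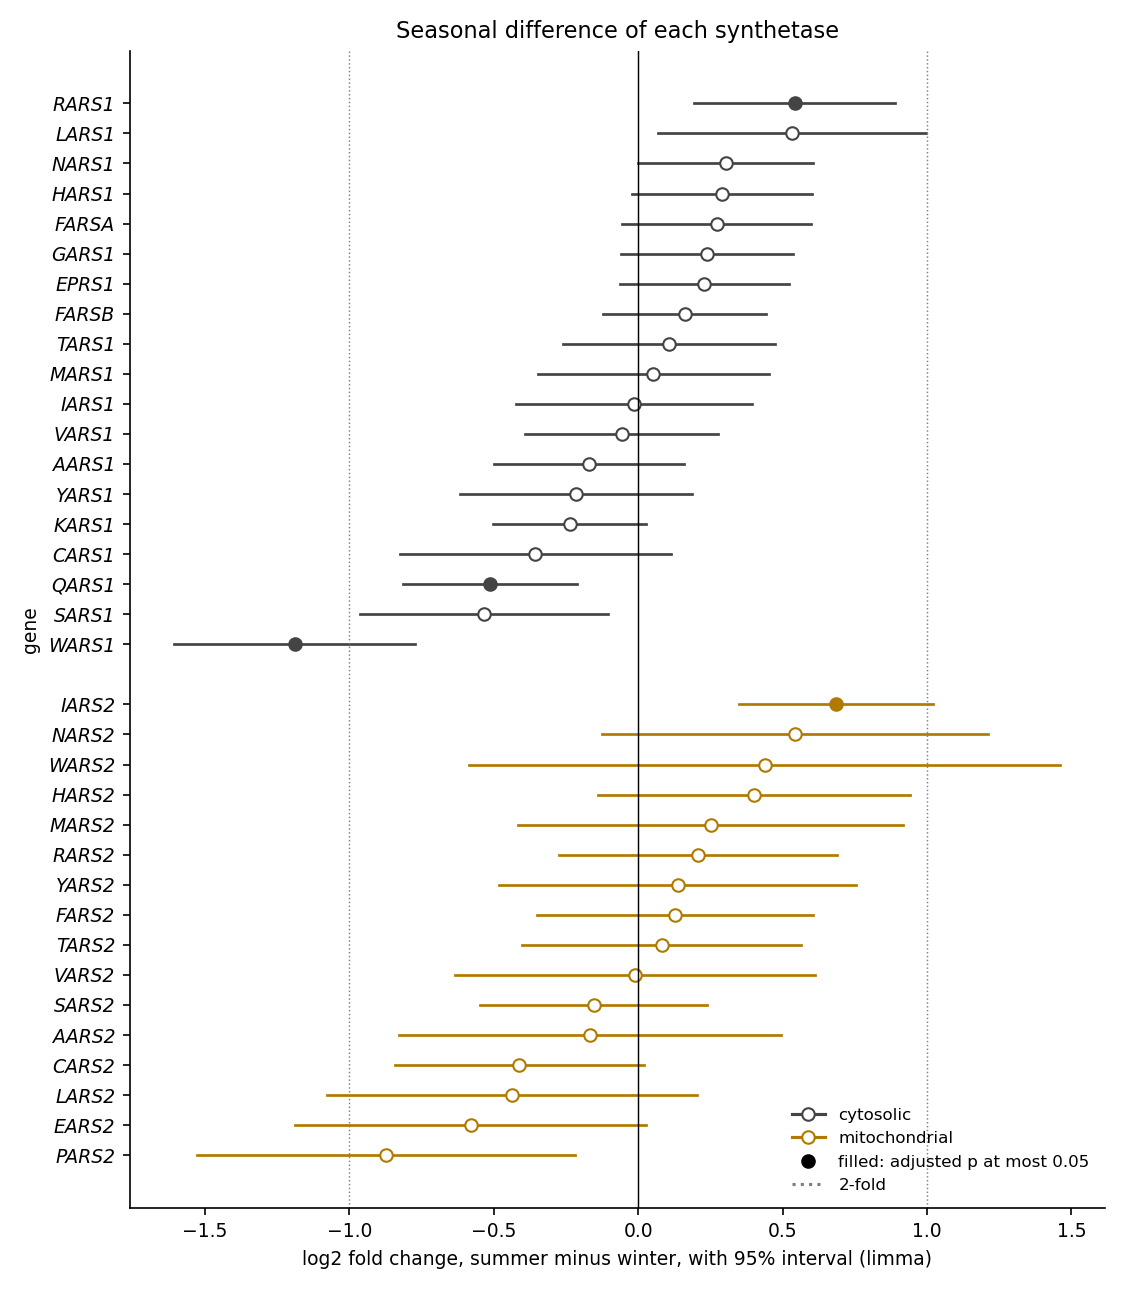
Log2 fold change of each synthetase, summer minus winter, with its 95% interval from limma. Filled points passed the adjusted p, and dotted lines mark a 2-fold change. *WARS1* at -1.19 is the only point beyond a line, and the intervals of 6 mitochondrial enzymes cross a line, against 1 of the cytosolic class.

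The tryptophan enzyme *WARS1* fell in summer. Its scaled TPM was 46.3, 50.9, 68.3 and 54.6 in summer, and 152, 89.9, 127 and 144 in winter. All winter libraries were above all summer libraries, with winter replicate 3 the nearest to summer. The means were 55.0 ± 9.48 (SD, n = 4) and 128 ± 27.4 (SD, n = 4), a log2 fold change of -1.19 (standard error 0.19, adjusted p = 0.00282, limma). It ranked 7th to 12th among the 35 synthetases of a summer library and 2nd or 3rd in every winter library. As a share of cytosolic synthetase TPM, which does not depend on the scaling between libraries, it held 3.93% to 5.32% in summer and 6.73% to 11.8% in winter. On the deposited TPM, where the mitochondrial genes take most of the total, *WARS1* was 10.02 to 25.0 in summer and 11.4 to 13.9 in winter, a log2 fold change of 0.29 beside a median of 0.89 for all tested genes. With a covariate for the mitochondrial share the log2 fold change was -0.89 (adjusted p = 0.0682, over all alternatives 0.000800 to 0.579), and without any 1 library the gene passed each time.

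The glutamine enzyme *QARS1*, a member of the multi-synthetase complex, fell as well, by less. It was 100.5, 104, 118 and 84.1 scaled TPM in summer, and 150.2, 158, 140 and 131 in winter. The seasons did not overlap, with means of 102 ± 14.1 (SD, n = 4) and 145 ± 11.7 (SD, n = 4) and a log2 fold change of -0.51 (standard error 0.14, adjusted p = 0.0242). The call ended without summer replicate 1 (adjusted p = 0.0657) or 5 (0.0638), and without winter replicate 1 (0.0553) or 3 (0.0550). It also ended without the TMM factor (-0.22, adjusted p = 0.279), without the trend of the variance with level (adjusted p = 0.0664) and with the mitochondrial share as a covariate (adjusted p = 0.199). The replicate number as a block ended it too (-0.54, adjusted p = 0.0612). On the deposited TPM the sign turned (0.95).

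The mitochondrial isoleucine enzyme *IARS2* rose in summer, the only member of its class past the threshold. It was 90.2, 93.0, 74.2 and 73.6 scaled TPM in summer, and 53.4, 55.0, 54.8 and 41.2 in winter. The lowest summer value was above the highest winter value, with means of 82.7 ± 10.3 (SD, n = 4) and 51.1 ± 6.65 (SD, n = 4). The log2 fold change was 0.69 (standard error 0.15, adjusted p = 0.0114, limma). It passed without each library in turn, and ended only with the mitochondrial share as a covariate (log2 fold change 0.52, adjusted p = 0.179, over all alternatives 0.00101 to 0.179). Its share of mitochondrial synthetase TPM was 34.6% to 39.0% in summer and 23.0% to 28.8% in winter.

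The arginine enzyme *RARS1*, of the multi-synthetase complex, was higher in summer. It was 58.0, 69.1, 64.4 and 68.0 scaled TPM in summer, and 34.5, 48.6, 43.4 and 52.0 in winter. Its log2 fold change was 0.54, with a standard error of 0.16 (adjusted p = 0.0337). The seasons did not overlap, with means of 64.9 ± 5.02 (SD, n = 4) and 44.6 ± 7.62 (SD, n = 4). The call was near the threshold, though, and it ended when summer replicate 1, 2 or 5 was removed, and likewise with winter replicate 1 or 4 (adjusted p 0.0589 to 0.0830). It also ended under quantile normalization (0.0637), without the variance trend (0.0663) and with the mitochondrial share as a covariate (adjusted p = 0.178). The replicate number as a block ended it too (adjusted p = 0.108).

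**Figure D3:**
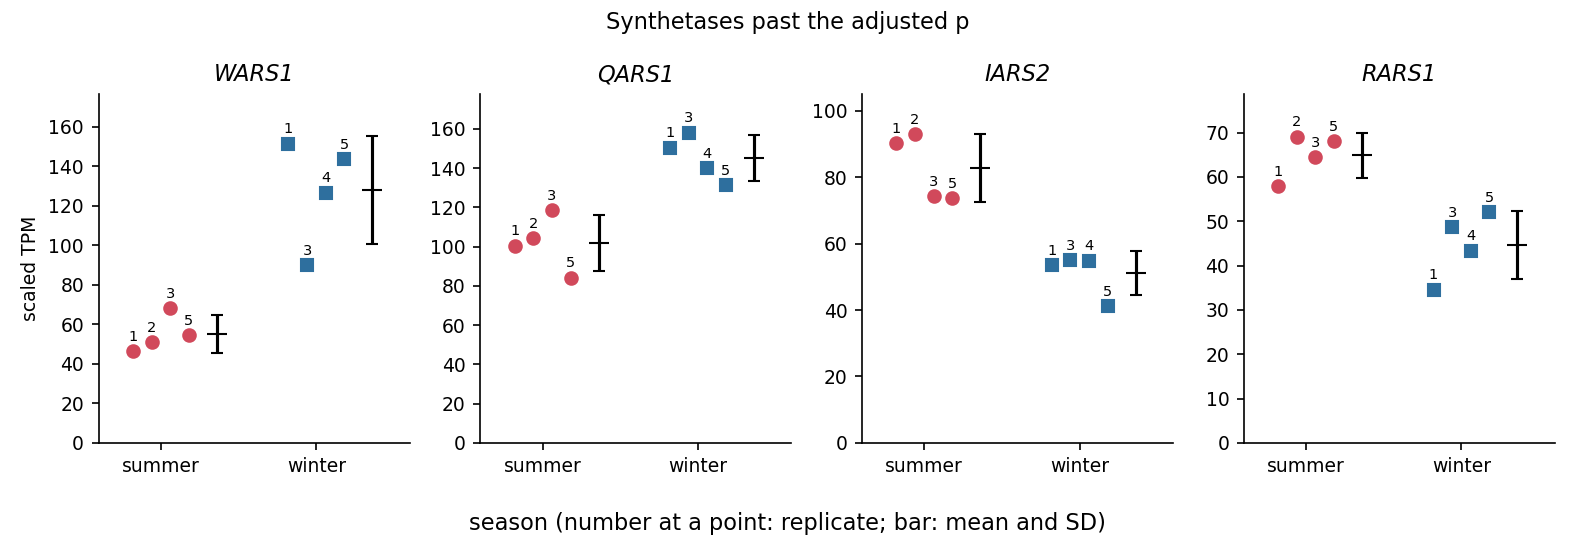
Scaled TPM of the 4 synthetases past the adjusted p, by season, with the replicate number at each point and the mean with SD beside it. In each panel the 4 summer points lie wholly below (*WARS1*, *QARS1*) or wholly above (*IARS2*, *RARS1*) the 4 winter points.

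Of 7 enzymes of the multi-synthetase complex, 5 did not pass the adjusted p. The leucine enzyme *LARS1* was 43.2, 43.7, 51.6 and 46.8 scaled TPM in summer and 22.9, 47.9, 31.4 and 29.1 in winter, where replicate 3 lay within the summer range (log2 fold change 0.53, adjusted p = 0.0946). Without that library it passed (0.73, adjusted p = 0.0190). With all libraries *LARS1* passed without the TMM factor (0.82, adjusted p = 0.0158) and on the deposited TPM (1.75, adjusted p = 0.00294). *EPRS1* was 82.3 to 96.6 in summer and 65.5 to 82.2 in winter, without overlap (0.23, adjusted p = 0.242). The log2 fold changes of *KARS1* (-0.24), the methionine enzyme *MARS1* (0.05) and *IARS1* (-0.01) came with 95% intervals of -0.50 to 0.03, -0.35 to 0.45 and -0.42 to 0.39. The scaffold genes *AIMP1* (97.4 to 132 in summer, 96.7 to 122 in winter), *AIMP2* (44.5 to 62.5 and 26.4 to 50.2) and *EEF1E1* (22.3 to 36.3 and 16.6 to 29.0 scaled TPM), which hold the complex together, did not pass either (adjusted p 0.100 to 0.590, and 1, *AIMP2*, at an unadjusted p under 0.05). On the deposited TPM all 3 scaffold genes were higher, and without the TMM factor 2 were. The complex thus held members on either side of 0, from -0.51 to 0.54, with a median log2 fold change of 0.05.

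Of the 12 cytosolic enzymes outside the complex, *WARS1* alone passed. The serine enzyme *SARS1* was 48.8 to 59.8 scaled TPM in summer and 76.7, 56.5, 108 and 91.3 in winter (log2 fold change -0.53, adjusted p = 0.0735). Without winter replicate 3, the only winter library within the summer range, it passed (-0.70, adjusted p = 0.0180). With all libraries *SARS1* passed under quantile normalization (adjusted p = 0.0461) and with library weights (adjusted p = 0.0431). *NARS1* was 80.1 to 95.2 in summer and 58.2 to 75.5 in winter (0.30, adjusted p = 0.140), and *GARS1* was 44.6 to 50.5 and 36.8 to 43.9 (0.24, adjusted p = 0.228), each without overlap. The histidine enzyme *HARS1* had a log2 fold change of 0.29, *FARSA* 0.27, *FARSB* 0.16 and the threonine enzyme *TARS1* 0.11. The cysteine enzyme *CARS1* had -0.36, the tyrosine enzyme *YARS1* -0.21, *AARS1* -0.17 and *VARS1* -0.06. The 95% interval of each of these 11 genes lay within a 2-fold change in either direction.

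Among the 15 mitochondrial enzymes that did not pass, most were low. *PARS2* was nearest to the threshold, at 0.497, 0.115, 1.11 and 0.720 scaled TPM in summer and 1.28, 1.66, 3.29 and 1.63 in winter, without overlap (log2 fold change -0.87, adjusted p = 0.0591). At such levels the added 1 compresses the fold change, and the ratio of the means was 3.21, winter over summer. Without summer replicate 3 it passed (-1.02, adjusted p = 0.0434). With all libraries *PARS2* passed without the variance trend (adjusted p = 0.0485) and with library weights (adjusted p = 0.0273). *EARS2* was 0.112 to 0.717 in summer and 0.647 to 2.14 in winter (-0.58, adjusted p = 0.158). The asparagine enzyme *NARS2* was 5.54 to 8.71 in summer and 2.66 to 6.27 in winter, where replicates 3 and 4 lay in the summer range (0.54, adjusted p = 0.223).

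The remaining mitochondrial enzymes overlapped between seasons. Positive log2 fold changes were those of *WARS2* (0.44), the histidine enzyme *HARS2* (0.40), *MARS2* (0.25), the arginine enzyme *RARS2* (0.21), the tyrosine enzyme *YARS2* (0.14), the phenylalanine enzyme *FARS2* (0.13) and the threonine enzyme *TARS2* (0.08). Negative ones were those of the leucine enzyme *LARS2* (-0.44), the cysteine enzyme *CARS2* (-0.41), the alanine enzyme *AARS2* (-0.17), the serine enzyme *SARS2* (-0.15) and the valine enzyme *VARS2* (-0.01). *HARS2* was 10.4 to 11.6 scaled TPM in every summer library and 6.05 to 12.7 in winter. For 6 of the 16 mitochondrial enzymes, against 1 of the 19 cytosolic enzymes (*WARS1*), the 95% interval reached past a 2-fold change. A difference of that size was therefore not shown to be absent for those 5 of the 6 that did not pass the test. Nor was it for a low gene such as *MARS2* (interval -0.41 to 0.92), since the added 1 compresses the change there.

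Within a library, the ratio of the cytosolic to the mitochondrial enzyme for the same amino acid does not depend on the scaling. There were 16 such pairs, with *EPRS1* set against both *EARS2* and *PARS2* and *FARSA* against *FARS2*. In 15 pairs the cytosolic enzyme was higher in all 8 libraries. The exception was isoleucine, where *IARS2* was 3.03 to 5.63 times *IARS1* in summer and 1.94 to 3.17 times in winter. The cysteine pair was the nearest to equal, with *CARS1* 1.06 to 1.64 times *CARS2*, followed by serine with 1.68 to 4.02 and arginine with 2.14 to 3.93. At the other end, *MARS1* was 9.06 to 34.9 times *MARS2*, and *EPRS1* was 19.9 to 729 times *PARS2* and 30.6 to 769 times *EARS2*, ratios that rest on values of the mitochondrial enzyme of 0.112 to 3.29 scaled TPM. Seasons were apart for leucine, with *LARS1* 5.21 to 9.72 times *LARS2* in summer and 2.32 to 3.84 times in winter, and for proline, with *EPRS1* 86.6 to 729 times *PARS2* in summer and 19.9 to 54.1 times in winter. The other ratios overlapped. The ratio of *WARS1* to *WARS2* was 8.67 to 24.5 in summer and 176, 14.3, 32.7 and 113 in winter, where replicate 3 fell among the summer values. No test was made on these ratios.

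**Figure D4:**
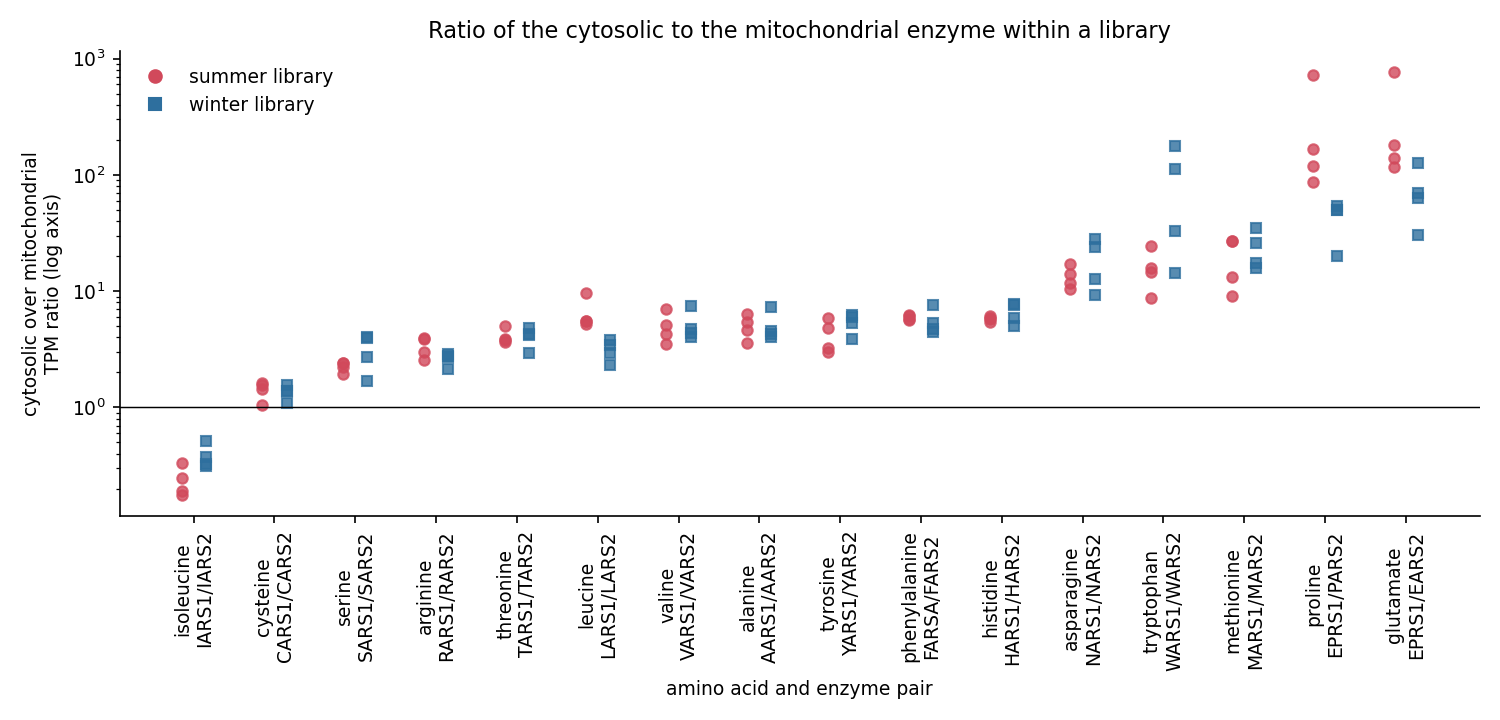
Ratio of the cytosolic to the mitochondrial enzyme for each amino acid within a library, on a log axis, pairs ordered by median. Only isoleucine lies below the line of equal level, with *IARS1* at 0.177 to 0.517 times *IARS2*, and proline and glutamate stand highest.

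Summed over a class, the levels overlapped between seasons. The 19 cytosolic enzymes summed to 1179 to 1285 scaled TPM in summer and 1284 to 1402 in winter, and the 16 mitochondrial enzymes to 204 to 241 and 179 to 229. The cytosolic sum was 4.90, 5.30, 5.99 and 5.79 times the mitochondrial sum in summer and 6.91, 5.84, 6.61 and 7.83 times in winter. Winter replicate 3 lay within the summer values, and the mean was 5.50 ± 0.494 (SD, n = 4) for summer and 6.80 ± 0.823 (SD, n = 4) for winter. With *WARS1* and *IARS2* left out, a choice made after their values were seen, the summer ratio was 8.29 ± 0.537 (SD, n = 4) and the winter ratio 8.28 ± 0.821 (SD, n = 4), which overlapped. Leaving out the genes with the largest opposite changes brings the seasons closer by construction. The ratios that remain were therefore not read as a result.

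Places of the genes were compared through the order of protein-coding genes in the RefSeq table of another assembly (ARS-UCD2.0), in which all 35 were found by symbol. *HARS1* and *HARS2* are direct neighbours there, and their log2 fold changes were 0.29 and 0.40. *EPRS1* and *IARS2* are separated by *BPNT1* alone, with 0.23 and 0.69. *SARS2* lies next to *MRPS12*, a mitochondrial ribosomal protein gene. The sources used here do not state that the counting used strand, so reads of overlapping neighbours, or of near-identical copies of a gene, may be shared.

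Other genes of the same steps were read from lists. Of 4 genes that modify charged tRNA in mitochondria (*GATB*, *GATC* and *QRSL1* of the amidotransferase that makes glutaminyl-tRNA, and *MTFMT*, which formylates methionyl-tRNA) none passed (none at an unadjusted p under 0.05, adjusted p 0.351 to 0.983). On the deposited TPM, where 62.9% of all tested genes passed, all 4 were higher. Of 10 mitochondrial translation factors 1 passed, *TSFM*, the exchange factor of the mitochondrial elongation factor *TUFM*, with 63.4 to 81.5 scaled TPM in summer and 25.6 to 39.8 in winter (log2 fold change 1.06, adjusted p = 0.00297), a call that ended with the mitochondrial share as a covariate (adjusted p = 0.0615). The median of the 10 was 0.37. On the deposited TPM 8 of the 10 were higher, and without the TMM factor 4 were. Of 12 tested cytosolic elongation and termination factors 4 were lower in summer and 1 higher, with a median of -0.14. The lower ones were *EEF1B2* (-0.78, adjusted p = 0.00346), *EEF1G* (-0.73) and *EEF1D* (-0.54), subunits of the exchange factor that recharges EEF1A, and the translocase *EEF2* (-0.67), which was 1178 to 1934 scaled TPM in summer and 2280 to 2577 in winter. On the deposited TPM these 4 had the opposite sign and 7 of the 12 were higher and 0 lower, and without the TMM factor 4 were higher and 1 lower. *EEF1A1*, which delivers charged tRNA to the ribosome, overlapped at 3800 to 4927 and 3784 to 5484 (adjusted p = 0.640). The higher one was *HBS1L* (0.48), a ribosome rescue factor, which passed in 2 of the 8 fits that leave out a library.

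Among 12 genes of tRNA splicing, end processing and export 2 were higher and 1 lower, with a median of 0.14. They were *TRMT10C* (1.002) and *HSD17B10* (-0.40), which encode partners in the mitochondrial enzyme that cuts tRNA precursors, and *TSEN15* (0.80) of the tRNA splicing endonuclease. *HSD17B10* passed in 1 of the 8 fits that leave out a library, and on the deposited TPM it turned (1.07). On that scale 10 of the 12 were higher and 0 lower. With the mitochondrial share as a covariate none of the 12 passed (highest adjusted p over all alternatives 0.173 for *TRMT10C* and 0.115 for *TSEN15*). Of 5 tested genes of synthetase-like, editing and selenocysteine enzymes, *PRORSD1* was lower, at 10.1 to 18.05 scaled TPM in summer and 23.9 to 35.1 in winter (-0.999, adjusted p = 0.00939). *TARS3*, a relative of *TARS1* that the symbol rule leaves out, was 1.42 to 4.81 in summer and 2.38 to 4.45 in winter (-0.38, adjusted p = 0.443).

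For the pathway that senses uncharged tRNA the count depended on the scaling, as it did for the other lists. None of 17 genes of the eIF2 kinases, eIF2, eIF2B and ATF4 passed (4 at an unadjusted p under 0.05, lowest adjusted p 0.0723, limma), with a median of 0.17. Without the TMM factor 5 were higher, and on the deposited TPM 16, with a median of 1.39 beside 0.89 for all tested genes. *ATF4* was 570.4, 683, 421 and 397 scaled TPM in summer and 370, 438, 555 and 321 in winter (0.29, adjusted p = 0.349), and *EIF2AK4*, the kinase that binds uncharged tRNA, was 10.3 to 13.7 and 10.2 to 15.7 (0.02). Of 29 tested amino acid response genes other than synthetases, 2 were higher and 2 lower, with a median of 0.05. Without the TMM factor 7 of the 29 were higher and 2 lower, and on the deposited TPM 19 and 2. *CTH* (1.301), of cysteine synthesis, and *CEBPG* (0.71), a partner of ATF4, were higher, *CEBPG* in 4 of the 8 fits that leave out a library. *NUPR1* (-3.95) and the pseudokinase *TRIB3* (-1.49) were lower. *CTH* was listed at 0 in 3 winter libraries and *TRIB3* in 2 summer libraries. *CTH* met the expression filter through the summer libraries only, and *TRIB3* through the winter libraries only. The direction of both calls was therefore favoured in advance. *ASNS*, asparagine synthetase and a standard readout of amino acid shortage, was 10.3 to 19.5 in summer and 11.6 to 24.7 in winter (-0.16, adjusted p = 0.735).

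Interferon response genes were listed because *WARS1* belongs to that response in human cells. Of 17 tested, 5 were lower in summer and none higher, with a median log2 fold change of -0.87, where 10.2% of all tested genes were lower. On the deposited TPM 1 was lower and 1 higher (median 0.055), and with the mitochondrial share as a covariate 1 was lower. The 5 lower genes were the immunoproteasome subunits *PSMB8* (-1.76, adjusted p = 0.000921) and *PSMB9* (-0.72), the regulator *NLRC5* (-1.34), the peptide transporter *TAP1* (-1.09) and *IDO1* (-1.65). Like *WARS1*, *IDO1* uses tryptophan as a substrate. These 5 met the expression filter in both seasons. *GBP2*, *IFIT2*, *CXCL9* and *GBP5* met it through the winter libraries only, and *CXCL10* through the summer libraries only. The filter thus tilted the median of the 17 toward lower in summer. On the deposited TPM *PSMB9* (0.72) and *TAP1* (0.21) turned, and with a library left out *TAP1* passed in 6 and *IDO1* in 3 of 8 fits. *IRF1* (35.99 to 147 scaled TPM in summer and 33.7 to 71.5 in winter) did not pass. Summed over 19 genes, the list was 275, 344, 191 and 290.1 scaled TPM in summer and 606, 425, 565 and 519 in winter. The lowest winter sum was in replicate 3, where *WARS1* was lowest too, and the highest in replicate 1, where *WARS1* was highest. In summer the interferon sum was lowest in replicate 3, where *WARS1* was highest. The leukocyte markers summed to 40.1, 74.5, 173 and 131 in summer, in the same order as *WARS1*, and to 469, 976, 596 and 792 in winter, highest where *WARS1* was lowest and lowest where it was highest. These are orders of the 4 libraries within a season, and they were not tested. None of the 16 leukocyte markers was at 0 throughout a season, and *PTPRC*, the pan-leukocyte antigen CD45, was 0.996 to 3.38 in summer and 7.74 to 26.6 in winter. The part of other cells in the level of *WARS1* was not tested.

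**Figure D5:**
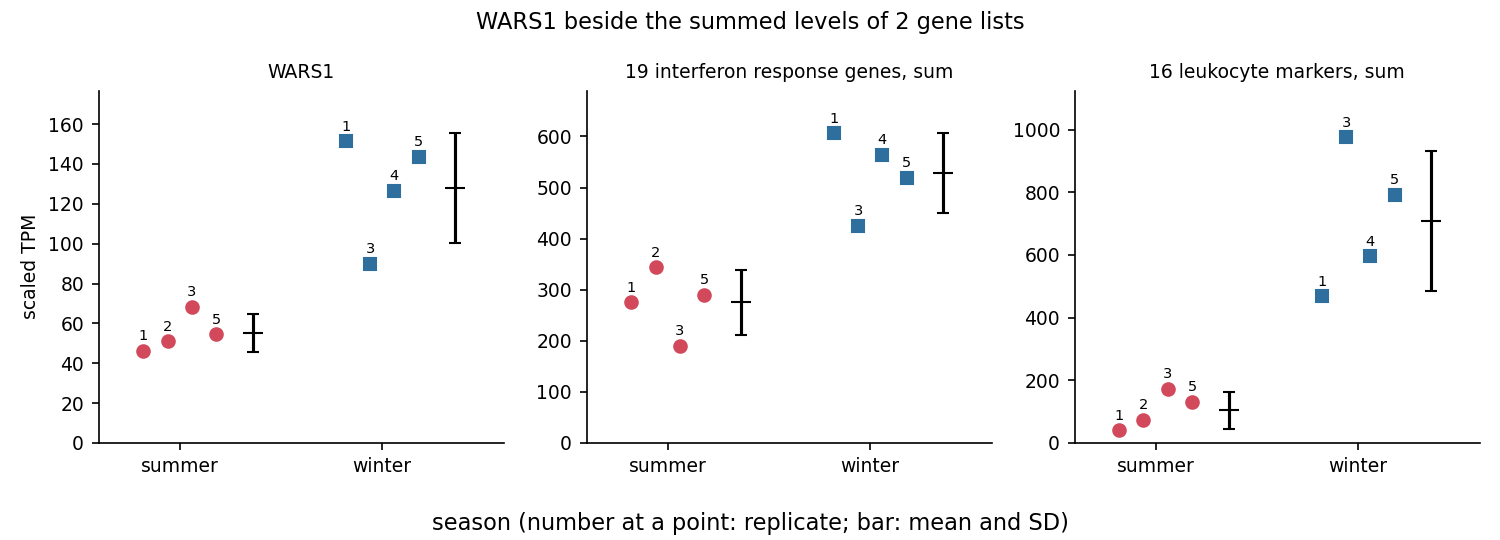
Scaled TPM of *WARS1* and the summed scaled TPM of 19 interferon response genes and of 16 leukocyte markers, by season, with replicate numbers, means and SD. All 3 are higher in every winter library than in every summer library, and within winter replicate 3 is lowest for *WARS1* (89.9) and the interferon sum (425) and highest for the leukocyte sum (976). Within summer, replicate 3 is highest for *WARS1* (68.3) and the leukocyte sum (173) and lowest for the interferon sum (191).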

How the data were processed

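The authors deposited TPM per gene for 8 granulosa cell mRNA libraries, each summing to 1000000. According to the study's methods, CLC Genomics Workbench trimmed the reads, mapped them to ARS-UCD1.3 and tested the seasons with a negative binomial model, which needs counts and was not used here. The submitters' processing notes name bcl2fastq, Bowtie2 2.2.2, DESeq2 and ARS-UCD1.2 instead. Depth was stated only as an average over libraries, so no counting error was computed.

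From the TPM, scaled TPM was computed without the 13 mitochondrial genes and with a TMM factor (30% of M and 5% of A trimmed). A gene was kept where all libraries of either season had a zFPKM above -3, and was tested with limma 3.58.1 in R 4.3.3 (lmFit, eBayes with trend) on log2(scaled TPM + 1), a scale that understates changes of low genes, with season as the only term, and checked on simulated data. The 95% intervals are limma's. Members and lists were chosen with earlier results of these data known. Every synthetase reported was named, and of each other list up to 4 genes of smallest adjusted p past the threshold, plus *ATF4*. Other genes of those lists (*AIMP1*, *AIMP2*, *EEF1E1*, *GATB*, *GATC*, *QRSL1*, *MTFMT*, *EEF1A1*, *HBS1L*, *TARS3*, *EIF2AK4*, *ASNS*, *IDO1*, *IRF1*, *INHA*, *FOXL2*, *AMHR2* and *PTPRC*) were chosen after their values were seen. Alternatives covered scaling, pseudocount, filter, variance model, library weights, the replicate number as a block, the mitochondrial share and leaving out each library. Some items, 2 synthetases among them, are not reported here, though all genes entered the fit. Promoter motifs and protein identity were not analysed here. Python 3.11.15 with matplotlib 3.10.9 drew the figures.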

Additional observations from a re-analysis of the deposited data

Results flagged for a closer look

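In 8 of 110 groups of 4 libraries, where chance flags about 1 in 20, a library lay far from the other 3 by Dixon's test. Of the genes, *IARS2* was 41.2 scaled TPM in winter replicate 5 (53.4 to 55.0 in the others), *NARS1* was 58.2 in winter replicate 4 (74.9 to 75.5) and *MARS1* was 29.9 in summer replicate 2 (24.0 to 24.9). Of the ratios, *AARS1* to *AARS2* was 7.29 in winter replicate 1 (3.999 to 4.52). In summer replicate 5, *EPRS1* to *EARS2* was 769 (117 to 182) and *LARS1* to *LARS2* was 9.72 (5.21 to 5.59). *EPRS1* to *PARS2* was 729 in summer replicate 2 (86.6 to 166) and 19.9 in winter replicate 4 (49.6 to 54.1). Ratios to *EARS2* and *PARS2* divide by values of 0.112 to 3.29 scaled TPM.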

How the results depend on the processing

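Scaling moved these results most. Over all tested genes the median log2 fold change was 0.03 as reported, 0.28 without the TMM factor and 0.89 on the deposited TPM. Relative to it, the median of the 35 synthetases lay at 0.05, 0.08 and 0.25. On the deposited TPM 15 cytosolic enzymes were higher and 0 lower, and 11 mitochondrial ones higher, where 7960 of all 13046 tested genes were higher and 243 lower. The sign turned for *AARS1* (1.18), *AARS2* (0.82), *CARS1* (0.97), *CARS2* (0.86), *EARS2* (0.031), *IARS1* (1.14), *KARS1* (1.25), *LARS2* (0.61), *QARS1* (0.95), *SARS1* (0.90), *SARS2* (1.11), *VARS1* (1.25), *VARS2* (0.87), *WARS1* (0.29) and *YARS1* (1.06), and among other genes for *EEF1B2* (0.73), *EEF1D* (0.96), *EEF1G* (0.78), *EEF2* (0.84), *HSD17B10* (1.07), *PRORSD1* (0.39), *PSMB9* (0.72) and *TAP1* (0.21). Without the TMM factor 8 cytosolic enzymes were higher and 1 lower, where 3011 of all tested genes were higher and 891 lower, and the sign turned for *AARS1* (0.12), *AARS2* (0.095), *IARS1* (0.26), *KARS1* (0.055), *SARS2* (0.13), *VARS1* (0.23), *VARS2* (0.25) and *YARS1* (0.068). Under quantile normalization 0 cytosolic enzymes were higher and 3 lower (*WARS1*, *QARS1* and *SARS1*), and *MARS1* (-0.027) and *VARS2* (0.019) turned.

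Without the trend 0 cytosolic enzymes were higher and 1 lower, and 1 mitochondrial enzyme, *PARS2*, was lower. With library weights 1 mitochondrial enzyme, *PARS2*, was lower, and *SARS1* was lower beside *WARS1* and *QARS1*. With the mitochondrial share as a covariate 0 were higher or lower in either class, as 299 of 13046 genes passed, 0 of them among the elongation and tRNA maturation lists, and the sign turned for *IARS1* (0.20), *MARS1* (-0.029), *TARS2* (-0.16) and *VARS1* (0.025). With the replicate number as a block 0 cytosolic enzymes were higher and 1 lower, as *QARS1* (adjusted p = 0.0612) and *RARS1* (0.108) did not pass. Nor did *TRMT10C*, *TSEN15* or any other tRNA maturation gene, and *IARS1* (0.017) and *MARS1* (-0.012) turned. Deviations of same-numbered pools correlated at 0.04, 0.16 and 0.11 for numbers 1, 3 and 5, not all above 0.1, so the numbers were not taken as pairs. Winter replicates 3 and 5 each correlated best with the summer pool of the same number. Winter replicate 1 correlated best with summer replicate 2, at 0.047 against 0.040 for its own number. These values do not settle whether a number marks the same cows. The study sampled the same cows in both seasons, and the fit without a block takes no account of that.

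Leaving out each library gave 0 to 2 cytosolic enzymes higher and 1 to 2 lower, and 1 mitochondrial enzyme higher and 0 to 1 lower. Over these fits the log2 fold change of *IARS1* ranged from -0.13 to 0.047, of *MARS1* from -0.057 to 0.16, of *TARS2* from -0.056 to 0.20, of *VARS1* from -0.12 to 0.0061, of *VARS2* from -0.18 to 0.12 and of *YARS2* from -0.011 to 0.32. *WARS1* passed under 19 of 21 alternatives and *IARS2* under 20, against 12 for *QARS1* and 12 for *RARS1*. The ratio of class sums moved from 5.50 to 8.29 in summer and from 6.80 to 8.28 in winter without *WARS1* and *IARS2*. The choice of these genes brings the seasons closer by itself. All other alternatives (pseudocounts of 0.5 and 5, both filters, robust variance, and the 2 unnamed genes left out of the total) kept the counts of both classes. For low mitochondrial enzymes no counting error could be given, since read numbers of single libraries are not in the sources used here.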
